A study of Mus musculus with 2 samples.

Results

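The 26 genes described here make cholesterol from acetyl-CoA, sense it, or carry it within the cell. They were chosen for these roles, with earlier results of these data known. Of the 26, 25 had an array probe set annotated with a single gene symbol, out of 18193 such genes in all. Acat2, the cytosolic thiolase that begins the pathway, had none. Its expression was not analysed here, and it enters only the search of promoter sequence. Total RNA came from 2 Klf5-overexpressing clones of E14, a mouse embryonic stem (ES) cell line; Klf5 is a zinc finger transcription factor of the pluripotent state. Both clones were labelled undifferentiated and kept in ES medium with 15% FBS and LIF, the cytokine that sustains self-renewal, and each was hybridised to 1 Affymetrix mouse array. The clones form 1 group with n = 2, and the labels state neither whether they were grown and hybridised together nor which promoter drives Klf5. Wild-type clones were not analysed here, so no value below measures an effect of Klf5.

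Cholesterol is built in the endoplasmic reticulum, first through the mevalonate steps that give farnesyl diphosphate, and then through squalene and a series of sterols. The genes of these enzymes are switched on together by SREBP-2, encoded by Srebf2, while SREBP-1, encoded by Srebf1, acts more on fatty acid synthesis. When membranes hold enough sterol, INSIG proteins keep the escort protein SCAP and its SREBP cargo in the endoplasmic reticulum; when sterol is scarce, SCAP takes SREBP to the Golgi, where it is cut and freed to enter the nucleus. Low-density lipoprotein from serum, which these cultures received, is the other source of cholesterol, and NPC1 and NPC2 release it from lysosomes.

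A signal is the deposited log2 value of a gene's brightest probe set, and a difference is clone 2 minus clone 1 on that scale. Background was set on each array at the 95th percentile of the signals of 57 adult tissue genes (94 probe sets), such as those of caseins, crystallins and digestive enzymes, which gave 6.28 in clone 2 and 6.63 in clone 1. Of the 25 measured sterol genes, 24 were above background in both clones, against 48.4% of the 18193 genes, and Npc1 was above it in clone 2 alone. The ES cell label was checked on 8 marker genes, and all 8 were above background in both clones, such as Nanog at 12.49 in clone 2 and 12.21 in clone 1. Of the markers of other cells, 1 of 8 fibroblast, 3 of 8 primitive endoderm, 3 of 7 trophoblast and 1 of 5 neural genes were above it in both. Averaged over each list, the marker signals were 12.34 in clone 2 and 12.18 in clone 1 for ES cells, 4.78 and 4.94 for fibroblasts, 7.32 and 7.27 for primitive endoderm, 6.67 and 6.75 for trophoblast and 5.20 and 5.39 for neural cells, and their part in the differences below was not tested. Klf5 itself gave 12.25 in clone 2 and 11.61 in clone 1 by its brightest probe set. A second Klf5 probe set gave 7.26 in clone 2 and 6.97 in clone 1, a smaller difference of 0.29. Its remaining probe set, at 4.77 and 4.81, was not above background.

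The clones expressed the sterol genes at close to the same signals. None of the 25 differed 2-fold, against 0.27% of the 9620 genes that passed background in either clone, called expressed genes from here on. Differences ran from -0.41 for Npc2 to 0.53 for Srebf2, with a median of -0.02, beside a median of 0.09 over expressed genes. The median absolute difference was 0.18 for the sterol genes and 0.17 for expressed genes. With 1 array per clone no test of a difference was possible, and a difference of at least 0.32 served as the rule of size, with any clone below background raised to its background level; signs and medians use the deposited values. By this rule 2 sterol genes were higher in clone 2, Srebf2 and Sqle, against 15.1% of expressed genes, and 1 was lower, Npc2, against 3.94%. With 25 genes, neither count stands far from those shares. Which genes passed depended on the processing. Sqle was at 0.28 under quantile and 0.29 under loess normalization, where Mvd passed at -0.36 and -0.34, and Mvk passed at -0.33 under quantile normalization. With each array centred on its own median Npc2 no longer passed, while Srebf1 (0.34) and Stard4 (0.36) did.

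**Figure D1:**
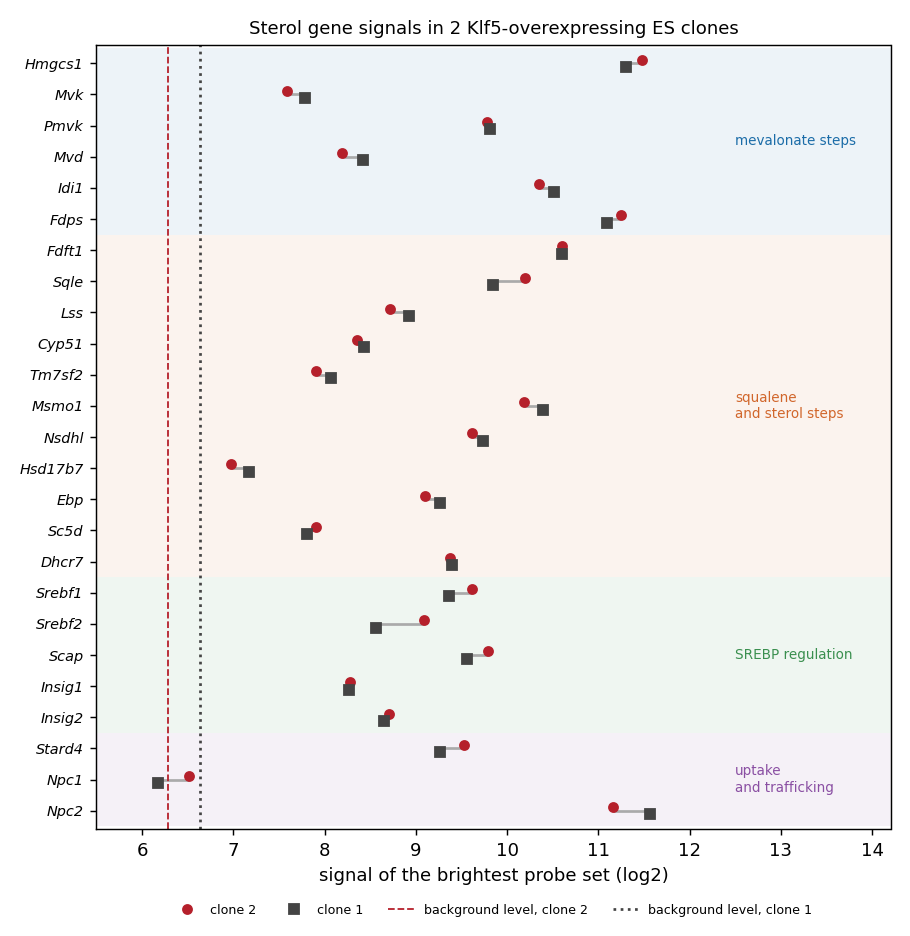
Signal of the brightest probe set (log2, x axis) of the 25 measured sterol genes in clone 2 (red circles) and clone 1 (grey squares), 1 array each, ordered by role; the vertical lines are the background levels, 6.28 in clone 2 and 6.63 in clone 1. Each pair of points lies close together, and only Npc1 has a point below the line of its own clone, that of clone 1; signals of different genes come from different probes and have no order of abundance.

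The count of higher and lower genes was taken by role, with no test. Among expressed genes 63.8% were higher in clone 2. Of the 25 sterol genes 11 were higher in clone 2, 13 were lower and Fdft1 was equal. The enzymes of synthesis made up most of the lower ones: 4 of 17 were higher in clone 2 and 12 lower, with a median difference of -0.12. All 5 genes of SREBP regulation were higher in clone 2, and their median difference was 0.23. These counts moved with the processing. With the mean over probe sets, 7 of 16 enzymes were higher in clone 2 and 9 lower, with a median of -0.025, and all 5 regulators were higher, against 63.5% of expressed genes. With each array centred on its own median, 8 of 17 enzymes and all 5 regulators were higher in clone 2, and 77.6% of expressed genes. Under quantile normalization 3 of 17 enzymes and 3 of 5 regulators were higher, and 48.4% of expressed genes; loess normalization gave the same counts for enzymes and regulators and 51.7% of expressed genes. Over all 25 sterol genes, 15 were higher and 10 lower with median centring, and 8 higher and 17 lower with quantile normalization.

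The mevalonate steps were read by 6 genes, 2 of them higher in clone 2 and 4 lower, with a median difference of -0.095. Hmgcs1, which makes HMG-CoA, gave 11.48 in clone 2 and 11.30 in clone 1. Its other 3 probe sets above background in both clones gave differences of 0.06, 0.11 and 0.40. All 4 Hmgcs1 readings were thus higher in clone 2. Fdps, which joins isoprene units into farnesyl diphosphate, was also higher in clone 2, at 11.25, than in clone 1, at 11.09. Between these enzymes lie the kinases, the decarboxylase and the isomerase, and the brightest reading of each was lower in clone 2. Mevalonate kinase, Mvk, gave 7.59 in clone 2 and 7.78 in clone 1, and its other probe set was lower in clone 2 too, by a difference of -0.11. Phosphomevalonate kinase, Pmvk, gave 9.78 and 9.81 in clones 2 and 1. Mvd, the decarboxylase that yields isopentenyl diphosphate, gave 8.19 in clone 2 and 8.42 in clone 1, the greatest difference of the group at -0.23. Idi1, which isomerises that product, gave 10.35 in clone 2 and 10.51 in clone 1. For Mvd and Idi1 the other probe set had the opposite sign, at 0.09 and 0.23, so neither sign was shared by the gene's own readings.

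From squalene to cholesterol 11 genes were read. In clone 2, 2 were higher, 8 lower and 1 equal, with a median of -0.12. This median was below 0 under every alternative of scaling and probe choice, and reached -0.03 with median centring. The alternatives of background and filter could hardly move it, as they change which genes count and not their deposited values. Fdft1, squalene synthase, gave 10.60 in both clones, and its other probe set above background differed by -0.03. Sqle, the squalene epoxidase and a flux-controlling enzyme, gave 10.20 in clone 2 and 9.84 in clone 1. Its mean was 10.02 ± 0.25 (SD, n = 2), and it was 1.28-fold higher in clone 2. As deposited no other enzyme of synthesis differed by 0.32 or more, and of the 1481 genes with a mean signal within 0.5 of it, 13.6% differed at least as much. The cyclase Lss, which closes the sterol rings, gave 8.72 in clone 2 and 8.92 in clone 1. Another Lss probe set, above background in clone 2 alone, gave 6.59 in clone 2 and 6.26 in clone 1; as 6.59 is below the background level of clone 1, no direction is read from it.

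Enzymes that trim lanosterol and shift its double bonds were mostly a little lower in clone 2. Cyp51, the lanosterol demethylase, gave 8.35 in clone 2 and 8.43 in clone 1, while its other probe set above background gave 8.02 in clone 2 and 7.72 in clone 1. Its readings therefore differed in sign. The sterol reductase Tm7sf2 gave 7.90 and 8.07 in clones 2 and 1. Msmo1, which oxidises the methyl groups to be removed, gave 10.18 in clone 2 and 10.39 in clone 1; a further Msmo1 probe set, at 3.64 and 4.61, was not above background. Averaging both gave a difference of -0.59 for Msmo1, which rests on that dim probe set. Nsdhl, the dehydrogenase that acts next, gave 9.61 in clone 2 and 9.73 in clone 1. Hsd17b7, the ketoreductase of that step, gave 6.97 in clone 2 and 7.17 in clone 1, both near background. Its other 3 probe sets were not above background in either clone. By the brightest probe set, all 3 demethylation enzymes after Cyp51 were lower in clone 2, by differences of -0.21, -0.12 and -0.20. Each was read by only 1 probe set above background, and none passed the rule of size. Ebp, the sterol isomerase, gave 9.10 in clone 2 and 9.26 in clone 1. The desaturase Sc5d gave 7.90 and 7.81 in clones 2 and 1, and Dhcr7, the last reductase, 9.37 and 9.39. Sc5d was the one gene besides Sqle in this stretch with a higher signal in clone 2.

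Among the regulators, Srebf2 differed most but its probe sets did not have the same sign. The brightest read 9.09 in clone 2, against 8.56 in clone 1. Its mean was 8.82 ± 0.37 (SD, n = 2), and it was 1.44-fold higher in clone 2. Of the 2092 genes with a mean signal within 0.5 of it, 5.35% differed at least as much. The other gave 8.70 in clone 2 and 8.83 in clone 1, which is lower in clone 2. The mean of both probe sets differed by 0.20, less than 0.32, so the place of Srebf2 as the most different sterol gene rests on 1 probe set. Srebf1 gave 9.61 in clone 2 and 9.36 in clone 1, and its single probe set does not separate the isoforms that start from different promoters. Scap, which escorts both SREBPs, gave 9.79 in clone 2 and 9.56 in clone 1; its second probe set was below background. Both were higher in clone 2, by 0.25 and 0.23.

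The INSIG pair, which retains SCAP, differed little between the clones. Insig1, itself a sensitive SREBP target, gave 8.28 in clone 2 and 8.27 in clone 1. Insig2, which is less dependent on SREBP, gave 8.70 in clone 2 and 8.65 in clone 1 by its brightest probe set. A second Insig2 probe set differed by 0.04, and the remaining one gave 7.82 in clone 2 and 7.26 in clone 1. That last reading was higher in clone 2 by 0.56, the greatest difference of any sterol gene probe set above background in both clones.

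As deposited, the 3 carriers ran from -0.41 to 0.34 and the 17 enzymes of synthesis from -0.23 to 0.36. With probe sets that may bind several transcripts left out, the carriers ran from -0.15 to 0.34. Among the enzymes, Mvd was then at -0.23 and Hmgcs1 at 0.40, so which group spread more depended on probe choice. Npc2, the soluble lysosomal protein that binds cholesterol, gave 11.16 in clone 2 and 11.57 in clone 1. Its mean was 11.36 ± 0.29 (SD, n = 2), and it was 1.33-fold lower in clone 2. Of the 680 genes with a mean signal within 0.5 of it, 4.85% differed at least as much. A second Npc2 probe set had the same sign, at 10.86 in clone 2 and 11.01 in clone 1, with a smaller difference of -0.15. Npc1, the membrane protein that takes cholesterol from NPC2, gave 6.51 in clone 2, above background, and 6.17 in clone 1, not above background. Because 6.51 is below the background level of clone 1, no fold is given for Npc1. Stard4, which moves sterol between membranes, gave 9.53 in clone 2 and 9.26 in clone 1, and its other 2 probe sets differed by 0.31 and -0.02. The median of these 3 genes was 0.27 with the deposited value of Npc1 and 0.0 with its clone 1 signal raised to background, and it was -0.07 with background at the 99th percentile, where Npc1 no longer counted.

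Several genes could be read more than once, which shows how far the probe sets of 1 gene disagree on the difference between the clones. Each such difference draws on both arrays, so the spread is not an error within 1 array. The 25 genes had 55 probe sets: 38 passed background in both clones, 3 in 1 clone and 14 in neither. Of the 10 genes with at least 2 probe sets above background in both clones, 5 had probe sets of opposite sign (Cyp51, Idi1, Mvd, Srebf2 and Stard4), against 47.9% of 3384 such genes in all. The differences of 1 gene's probe sets spanned a median of 0.335 for the sterol genes and 0.27 for all 3384. By the brightest probe set 21 of the 25 genes differed between the clones by less than that 0.335; the exceptions were Srebf2, Npc2, Sqle and Npc1. With the clone 1 signal of Npc1 raised to background the count was 22.

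**Figure D2:**
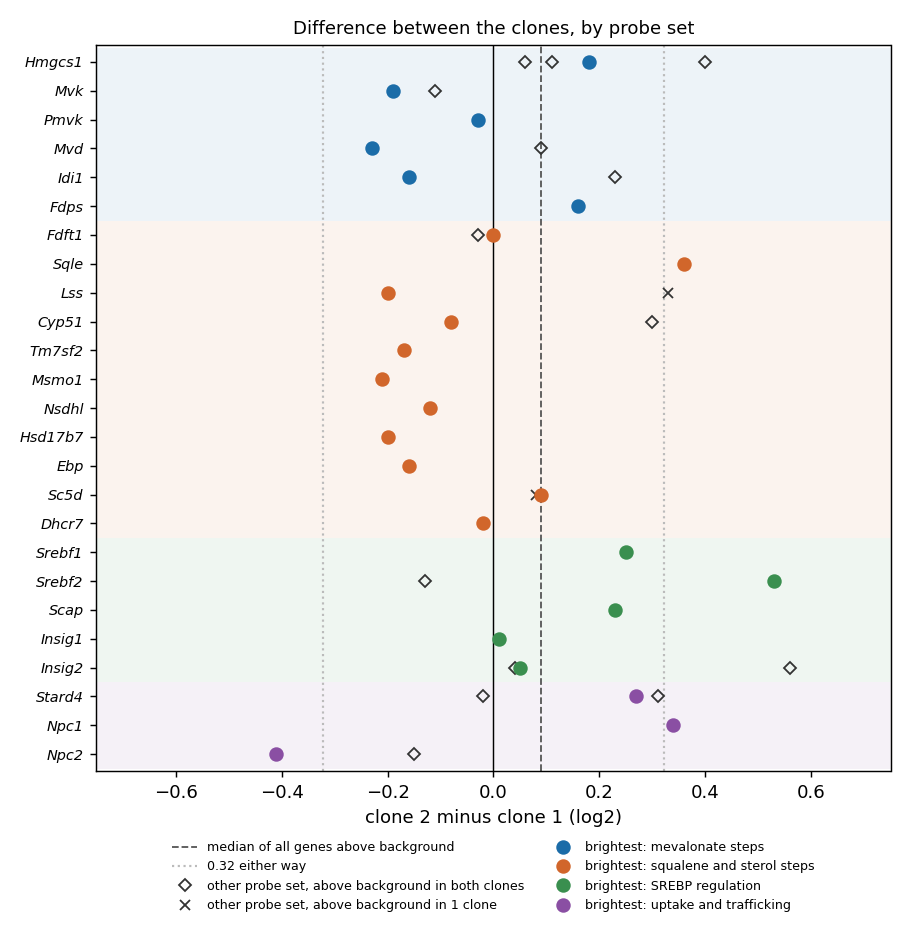
Difference between the clones (clone 2 minus clone 1, log2, x axis) for each sterol gene: filled circles are the brightest probe set, coloured by role, diamonds the other probe sets above background in both clones and crosses those above it in 1 clone. The dashed line is the median of expressed genes, 0.09, and the dotted lines mark a difference of 0.32 either way; Srebf2, Idi1, Mvd, Cyp51 and Stard4 have diamonds on the other side of 0 from their circle.

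**Figure D3:**
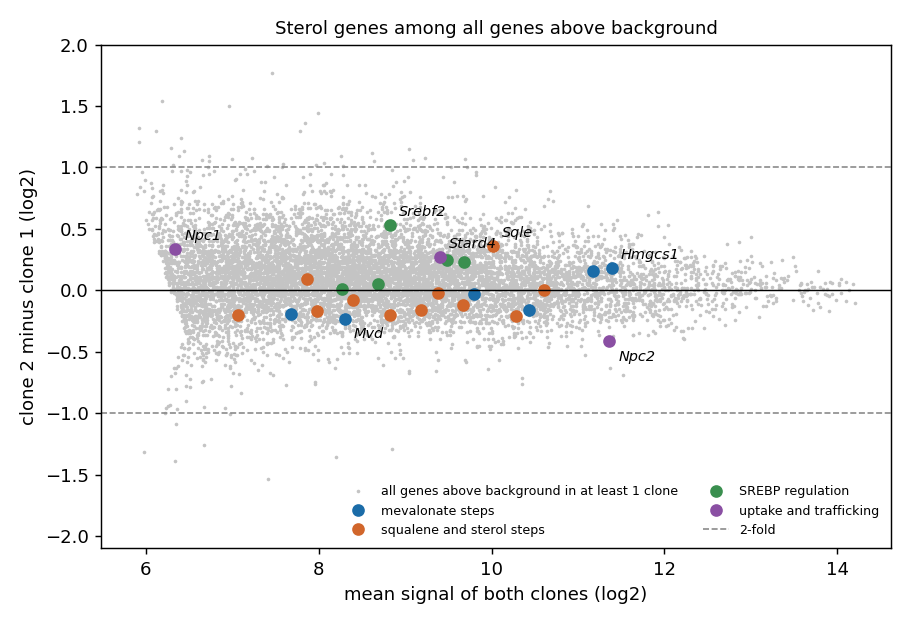
Difference between the clones (log2, y axis) against the mean signal of both clones (log2, x axis) for the 9620 expressed genes (grey) and the 25 sterol genes (coloured by role); dashed lines mark 2-fold. The sterol genes lie between -0.41 (Npc2) and 0.53 (Srebf2), within the cloud of expressed genes.

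Genes next to the pathway, from lists set beside the 26, were read in the same way. The fatty acid genes that SREBP also drives were above background in 14 of 14 cases in at least 1 clone; 12 were higher in clone 2, 1 lower and 1 equal, with a median of 0.16, beside 63.8% higher and a median of 0.09 over expressed genes. Quantile normalization left 9 higher and 5 lower, with a median of 0.085, beside 48.4% and 0.0. Fads2, a fatty acid desaturase, gave 8.20 in clone 2 and 7.69 in clone 1, and the phosphatidate phosphatase Lpin1 gave 8.53 and 8.13. Acly, which supplies cytosolic acetyl-CoA, gave 11.59 in clone 2 and 11.37 in clone 1, and the desaturase Scd2 gave 11.98 and 11.77. Fads2 and Lpin1 were the 2 of these 14 that differed by 0.32 or more, both higher in clone 2, against 15.1% of expressed genes.

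The list of SREBP processing and degradation of sterol enzymes also held the NF-Y subunit genes Nfya, Nfyb and Nfyc. Of its 18 genes above background, 14 were higher in clone 2 and 3 lower, with a median of 0.155, beside the same 63.8%. Quantile normalization gave 10 and 8, beside 48.4%. Fbxw7, the ubiquitin ligase subunit that marks nuclear SREBP, gave 8.97 in clone 2 and 8.62 in clone 1, the 1 gene of this list higher by 0.32 or more, against 15.1% of expressed genes. The isoprenoid branch uses farnesyl diphosphate for prenylation and ubiquinone. In clone 2, 7 of its 12 genes were higher and 5 lower, with a median of 0.035, beside 63.8% and 0.09 over expressed genes. By the rule of size 3 were higher in clone 2, against 15.1% of expressed genes, and 1 was lower, against 3.94%. Pdss2, of ubiquinone side chain synthesis, gave 8.04 in clone 2 and 7.61 in clone 1, and the prenyltransferase subunit Rabggtb gave 11.45 and 11.81. Under quantile normalization 5 genes of the branch were higher and 7 lower, with a median of -0.085, beside 48.4% and 0.0 over expressed genes. Of the other sterol enzymes listed, 2 were above background, 1 higher and 1 lower in clone 2. Lbr, a nuclear membrane protein with sterol reductase activity that overlaps that of Tm7sf2, gave 11.81 in clone 2 and 11.43 in clone 1. Its difference of 0.38 passed the rule of size, against 15.1% of expressed genes higher in clone 2. Acat1 gave 9.15 in clone 2 and 9.27 in clone 1.

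In the list of lipoprotein receptors, efflux and LXR genes 15 of 18 were above background in both clones, against 48.4% of all genes. Of the 16 above it in at least 1 clone, 11 were higher in clone 2, against 63.8% of expressed genes. The median difference was 0.105, beside 0.09, and -0.01 under quantile normalization, beside 0.0. By the rule of size 3 were higher in clone 2, against 15.1% of expressed genes, and 0 lower, against 3.94%. The largest of these differences was that of Gramd1a, at 8.24 in clone 2 and 7.82 in clone 1. Vldlr, a lipoprotein receptor, gave 6.77 in clone 2 and 5.47 in clone 1, which is not above background, so it was at least 1.10-fold higher in clone 2. Apoe gave 10.32 in clone 2 and 10.47 in clone 1. The enzymes of oxysterol, bile acid and steroid synthesis were mostly dim: 0 of 11 were above background in both clones. Cyp11a1 (6.73 in clone 2, 6.56 in clone 1) and Cyp27a1 (6.37 and 6.24) passed it in clone 2 alone.

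Promoter sequence was examined for what the sterol genes share beyond their roles. RefSeq windows of 300 bases on GRCm38.p6, from 250 bases before to 50 after each annotated start, were used. They were matched for 21 of the 26 genes, Acat2 among them, 29 windows in all, 5 genes having several starts. Fdps, Fdft1, Sqle, Stard4 and Npc1 had no window and were not searched. The windows were searched on both strands for a sterol regulatory element (SRE, TCACNCCAC), an E-box (CACGTG, a second kind of SREBP site), the NF-Y box (CCAAT), the GC box (GGGCGG) that Sp and Klf proteins can bind, and a CACCC box (CCACCC). Of 109 matches, 2 pairs of different motifs overlapped. A match is not a bound site, and no test was made of these shares. Shown are the windows of Hmgcs1, the one of the 21 genes with an SRE match, of Srebf2 and Npc2, and of Mvk. Srebf2 and Npc2 had the greatest differences among the genes with a window. Mvk was chosen after its matches were seen, for the most NF-Y boxes. Matches to any of the 5 motifs are in capitals, 5′ to 3′ on the strand of the gene.
Hmgcs1, chr13:119690101-119690400, plus strand: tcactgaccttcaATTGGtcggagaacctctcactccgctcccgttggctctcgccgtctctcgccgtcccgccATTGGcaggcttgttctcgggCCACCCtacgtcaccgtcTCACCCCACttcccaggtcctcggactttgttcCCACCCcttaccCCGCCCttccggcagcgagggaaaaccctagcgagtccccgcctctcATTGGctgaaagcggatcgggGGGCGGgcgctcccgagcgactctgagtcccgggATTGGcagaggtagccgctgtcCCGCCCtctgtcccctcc
Mvk, chr5:114444019-114444318, plus strand: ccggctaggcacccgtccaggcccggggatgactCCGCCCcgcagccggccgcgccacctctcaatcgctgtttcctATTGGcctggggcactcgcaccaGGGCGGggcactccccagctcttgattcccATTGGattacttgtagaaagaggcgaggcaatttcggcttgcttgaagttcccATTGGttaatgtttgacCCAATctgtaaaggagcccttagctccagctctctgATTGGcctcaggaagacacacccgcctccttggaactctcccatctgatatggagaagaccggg
Srebf2, chr15:82147019-82147318, plus strand: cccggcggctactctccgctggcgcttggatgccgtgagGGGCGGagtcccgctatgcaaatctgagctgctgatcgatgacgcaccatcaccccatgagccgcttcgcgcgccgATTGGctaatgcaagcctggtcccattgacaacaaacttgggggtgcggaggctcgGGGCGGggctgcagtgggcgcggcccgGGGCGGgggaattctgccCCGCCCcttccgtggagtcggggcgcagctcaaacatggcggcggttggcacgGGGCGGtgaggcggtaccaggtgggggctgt
Npc2, chr12:84773063-84773362, minus strand: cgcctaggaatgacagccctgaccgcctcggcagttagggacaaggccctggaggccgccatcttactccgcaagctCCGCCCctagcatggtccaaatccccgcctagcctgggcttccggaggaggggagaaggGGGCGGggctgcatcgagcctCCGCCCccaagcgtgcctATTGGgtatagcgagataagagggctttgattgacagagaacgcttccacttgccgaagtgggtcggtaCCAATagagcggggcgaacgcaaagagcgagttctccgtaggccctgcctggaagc

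The Hmgcs1 window held its SRE between -137 and -129 from the start, with 4 NF-Y boxes, 3 GC boxes and 2 CACCC boxes around it. The Mvk window held 5 NF-Y boxes and 2 GC boxes, the Srebf2 window 1 NF-Y box and 5 GC boxes, and the Npc2 window 2 and 3. NF-Y boxes were shared by most: 19 of 21 genes (90.5%) had one in a window, the exceptions being Acat2 and Scap, against 43.5% of the 7884 expressed genes that had a window. Counted by window, 69.0% of the sterol windows held one, 37.9% of windows of expressed genes and 37.4% of all 32851 windows. GC boxes were present in 20 of 21 genes (95.2%), all but Pmvk, against 72.1% of expressed genes, and in 82.8% of sterol windows against 65.3% of windows of expressed genes and 35.7% of all windows. The base composition was near that of expressed genes: the median GC content was 62.3% for the sterol windows, 61.3% for windows of expressed genes and 52.7% for all windows.

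E-boxes were matched in 5 of 21 genes (23.8%; Dhcr7, Hsd17b7, Insig1, Sc5d and Scap) against 12.6% of expressed genes, and by window in 20.7% against 10.5%, and 7.15% of all windows. CACCC boxes were in 33.3% of the sterol genes and 41.0% of expressed genes, and 34.5% of sterol windows against 36.9%, and 31.5% of all windows. The SRE was found in 1 of 29 windows (3.45%), and in 1.12% of windows of expressed genes and 1.24% of all windows. Genes without a match, Srebf2 among them, only lack these letters in this window.

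**Figure D4:**
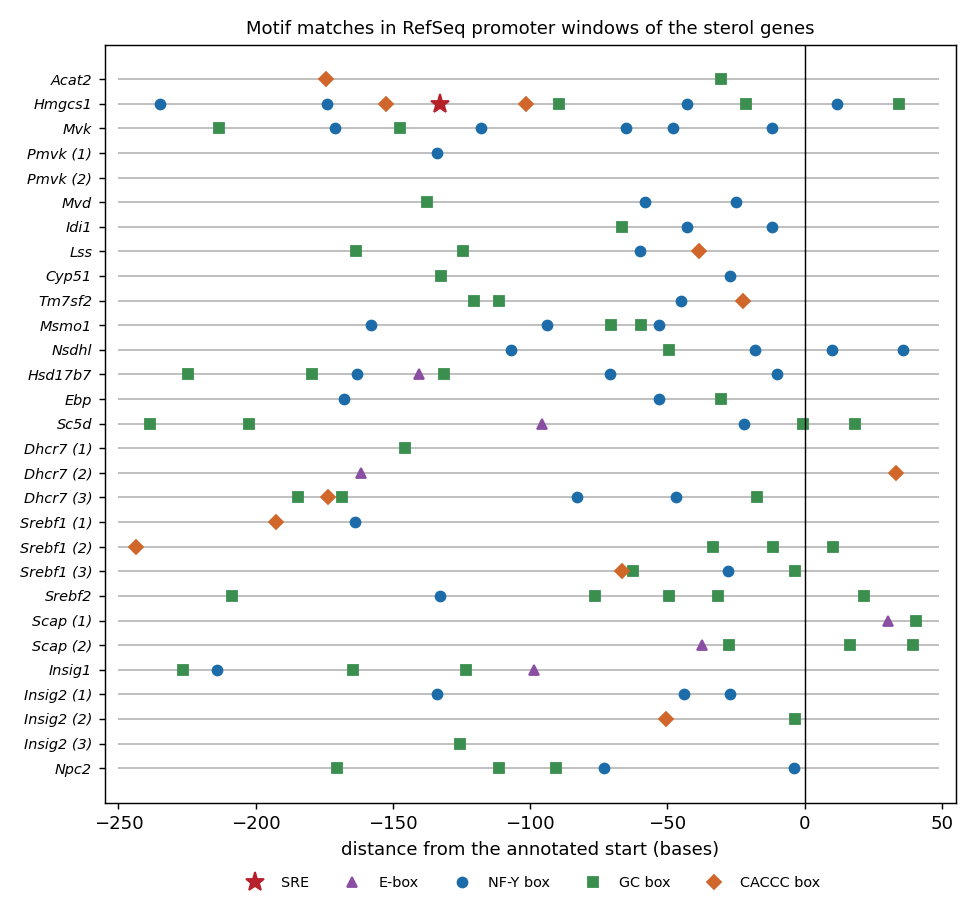
Matches of the 5 motifs (symbols) in the 29 RefSeq promoter windows of 21 sterol genes, by distance from the annotated start in bases (x axis); a number in brackets tells apart the starts of 1 gene. NF-Y boxes (blue) occur in 19 of 21 genes and GC boxes (green) in 20, while the SRE (red star) occurs in Hmgcs1 alone of the 21. Sterol genes without a window were not searched.

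**Figure D5:**
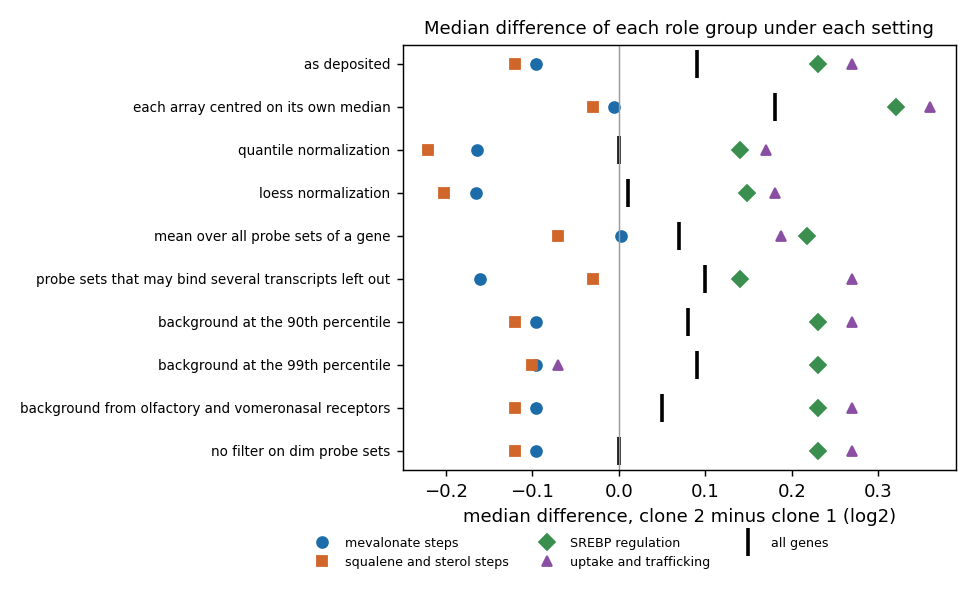
Median difference between the clones (clone 2 minus clone 1, log2, x axis) of each role group and of expressed genes (black bars), as deposited and under the 9 alternatives (y axis). The squalene and sterol steps lie below 0 and below the black bar in each row and the SREBP regulators above 0 in each. The mevalonate steps touch 0, and the carriers fall to -0.07 with background at the 99th percentile. The rows of background and filter use the same deposited values as the first row, so no stability is read from them.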

How the data were processed

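The authors deposited log2 signals of 45037 probe sets on 2 arrays. Per the submitters' processing notes the tool was Transcriptome Analysis Console. The labels used here do not state the background correction, summarisation, normalization, genome build or log base; base 2 was inferred from values between 2.21 and 14.38. Column medians were 5.18 in clone 2 and 5.27 in clone 1, and 1.32% of values were identical. Genes were named from the platform annotation: 34945 probe sets had 1 symbol, 932 several and 9160 none there. Entrez identifiers of 34741 matched the GRCm38.p6 gene table, which changed 0 symbols.

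A gene was read by the probe set with the highest mean of both arrays. Probe-level intensities were not used here, so background came from genes restricted to adult tissues (65 listed, 57 measured). No test was possible with 1 array per clone, and 2 arrays limit precision. The counting steps were run on simulated data, with differences larger than the rule of size planted in bright genes. The simulated spread between clones was smaller than that observed. This run therefore says nothing of counts near that rule or near background. Software was Python 3.11.15, pandas 2.3.3, numpy 2.4.6, statsmodels 0.14.6 (loess, span 0.3) and matplotlib 3.10.9.

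The members and lists were chosen with earlier results of these data known. All members were named; of each neighbouring list the text draws on up to 4 genes, those with the largest difference and the highest signal. Alternatives were median centring, quantile and loess normalization, the mean over probe sets, leaving out probe sets named _a_at, _s_at or _x_at, which can bind several transcripts, background at the 90th or 99th percentile or from 80 olfactory and vomeronasal receptor probe sets, no filter, and each clone alone. Background genes without Mylpf and the other treatment of a clone below background were chosen after seeing the data.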

Additional observations from a re-analysis of the deposited data

How the results depend on the processing

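The median difference of the 25 sterol genes, -0.02, changed sign with each array centred on its own median (0.07), with probe sets averaged per gene (0.033) and without probe sets that may bind several transcripts (0.01); the cause was not tested. The mean over probe sets also turned the mevalonate median to 0.003, and background at the 99th percentile turned that of the carriers to -0.07, where Npc1 was no longer counted; with Npc1 in clone 1 raised to background, an alternative chosen after seeing the data, the carriers' median was 0.0. The medians of the squalene and sterol steps and of SREBP regulation kept their signs under each alternative of scaling and probe choice. The alternatives of background and filter change which genes count and not the deposited values. They could hardly turn these medians, so no stability is read from them. Between 24 and 25 genes were above background with each clone alone. The count above it in both clones, 24 as reported beside 48.4% of all genes, moved with probe choice and level. The shares of all genes under these alternatives are not given here. It was 22 when probe sets were averaged per gene. It was 19, of 23 genes then measured, without probe sets that may bind several transcripts. A level set at the 99th percentile gave 23, one at the 90th gave 24, and one from receptor probe sets gave 25. The count of genes with a difference of 0.32 or more was between 2 and 4 under every alternative run, against 3 as reported. By that rule 15.1% of expressed genes were higher in clone 2 and 3.94% lower as deposited. Those shares were 24.7% and 1.93% with median centring, and 8.22% and 8.51% under quantile normalization. With 25 genes, no stability is read from these counts. The count past 2-fold was 0 throughout, against 0.27% of expressed genes as deposited. The genes that passed 0.32 changed: under quantile and loess normalization Sqle (0.28 and 0.29) was replaced by Mvd (-0.36 and -0.34), with Mvk (-0.33) under quantile. Median centring removed Npc2 and added Srebf1 (0.34) and Stard4 (0.36). The mean over probe sets moved Srebf2 to 0.20, Npc2 to -0.09, Lss to 0.03, Cyp51 to 0.18 and Msmo1 to -0.59, leaving Sqle and Msmo1 past 0.32. Without probe sets that may bind several transcripts, Hmgcs1 (0.40) passed and Npc2 (-0.15) did not; Lss (0.33) and Msmo1 (-0.97) were then read by probe sets not above background in both clones. No paired analysis was possible because both clones belong to 1 group. Signal over background limits Npc1 and Hsd17b7 most, and 2 arrays limit every difference.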
